A study of Mus musculus with 10 samples.

Results

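The Th1 regulator and effector genes are 7 mouse genes: Tbx21, Ifng, Runx3, Il12rb2, Eomes, Cxcr3 and Stat4. They were followed through H3K4me2, the dimethylated form of lysine 4 on histone H3 and a chromatin mark of promoters and enhancers, measured by chromatin immunoprecipitation and sequencing. A peak was counted as belonging to one of them when the gene was its nearest protein-coding gene in the RefSeq annotation within 100 kb. This gave 160 of the 152121 peaks in 8 libraries, and 40 of the 27854 regions formed by merging the peaks of the 6 airway libraries within 500 bp. Each of the 7 genes had at least 1 region. The assignment is by position, and a distal element may serve another gene. Values throughout are normalized tags, the authors' tag count of a peak scaled to 10000000 tags in the library, and the authors' minimum of about 40 normalized tags decides whether a peak is called.

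The cells were sorted lymphocytes of mice with airway inflammation that carried a yellow fluorescent reporter at Gata3 (genotype Gata3-YFP/YFP), and this holds for every group compared. There was 1 library from bronchoalveolar lavage and 1 from the mediastinal lymph node for each of 3 cell types, namely T cells labelled naive, Th2 cells (type 2 helper T cells) and ILC2s (type 2 innate lymphoid cells). Spleen and thymus were each represented by 1 library of CD4+ lymphocytes. The labels used here give no age, strain background, agent of inflammation or sort gate, so naive T names the label and not a checked state. The design text speaks of biological replicates, but the labels do not say which libraries share animals. The p-values measure only the spread between these samples, which here includes the site.

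Th1 cells are the helper T cells that secrete interferon-gamma, and they develop when interleukin-12 signals through its receptor to the transcription factor STAT4. T-bet, the product of Tbx21, is the lineage-defining factor of Th1 cells, and it opposes GATA3, the factor on which both Th2 cells and ILC2s depend. Runx3 acts with T-bet to activate the interferon-gamma gene and to silence the interleukin-4 gene, and Eomes is a related T-box factor best known from cytotoxic lymphocytes.

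The sequences just upstream of the annotated starts of 4 members are shown, and the libraries differed in whether a peak covered these starts. They also differed at the Eomes start (covered in 6 libraries) and the second Runx3 start (covered in 5), whose sequences are not shown. Each sequence shown is the 250 bases before the start on the coding strand, taken from RefSeq on GRCm38.p6, which has the coordinates of mm10. Capitals mark matches on either strand to a STAT motif (TTCNNNGAA), a Runx motif (TGTGGT), a T-box motif (GGTGTGA) or a GATA motif (AGATAA), and no match overlapped another in these windows. The windows lie at chr10:118440796-118441045 on the plus strand (Ifng), chrX:101734148-101734397 on the minus strand (Cxcr3), chr6:67376189-67376438 on the minus strand (Il12rb2) and chr11:97115332-97115581 on the minus strand (Tbx21).
Ifng: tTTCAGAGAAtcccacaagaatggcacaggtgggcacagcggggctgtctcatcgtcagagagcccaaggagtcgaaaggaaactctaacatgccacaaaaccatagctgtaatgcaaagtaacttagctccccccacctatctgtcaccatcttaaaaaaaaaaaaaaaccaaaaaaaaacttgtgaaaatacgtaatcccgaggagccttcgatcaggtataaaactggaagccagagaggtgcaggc
Cxcr3: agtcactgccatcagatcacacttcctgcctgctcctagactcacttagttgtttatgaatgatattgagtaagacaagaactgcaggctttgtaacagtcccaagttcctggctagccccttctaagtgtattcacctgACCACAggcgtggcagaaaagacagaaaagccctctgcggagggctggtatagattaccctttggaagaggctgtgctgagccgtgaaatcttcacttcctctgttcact
Il12rb2: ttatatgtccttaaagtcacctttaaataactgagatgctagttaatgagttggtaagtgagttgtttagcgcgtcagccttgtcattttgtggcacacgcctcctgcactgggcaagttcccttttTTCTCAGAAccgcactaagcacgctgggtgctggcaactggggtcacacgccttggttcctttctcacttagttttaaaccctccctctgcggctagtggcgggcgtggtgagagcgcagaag
Tbx21: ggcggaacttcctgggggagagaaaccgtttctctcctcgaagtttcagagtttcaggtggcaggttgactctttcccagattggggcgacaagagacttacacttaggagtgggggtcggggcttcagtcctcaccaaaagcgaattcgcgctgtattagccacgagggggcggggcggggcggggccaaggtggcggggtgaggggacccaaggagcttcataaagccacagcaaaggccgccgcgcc

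The Ifng start was covered by a called peak in 1 of the 8 libraries, that of lavage naive T cells. The Cxcr3 start was covered in 3 libraries, the Il12rb2 start in 4 and the Tbx21 start in 7. Ifng and Il12rb2 each held 1 match to the STAT motif, which 7.02% of all 32851 RefSeq windows of 250 bases hold. Cxcr3 held 1 match to the Runx motif, which 14.0% of windows hold, and the Tbx21 window held none of the 4 motifs. Matches to the T-box motif (3.33% of windows) and the GATA motif (9.99%) were absent from all 4 windows. The Tbx21 window was also richer in CG dinucleotides, with 16 against 6 for Ifng, 10 for Il12rb2 and 3 for Cxcr3.

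**Figure D1:**
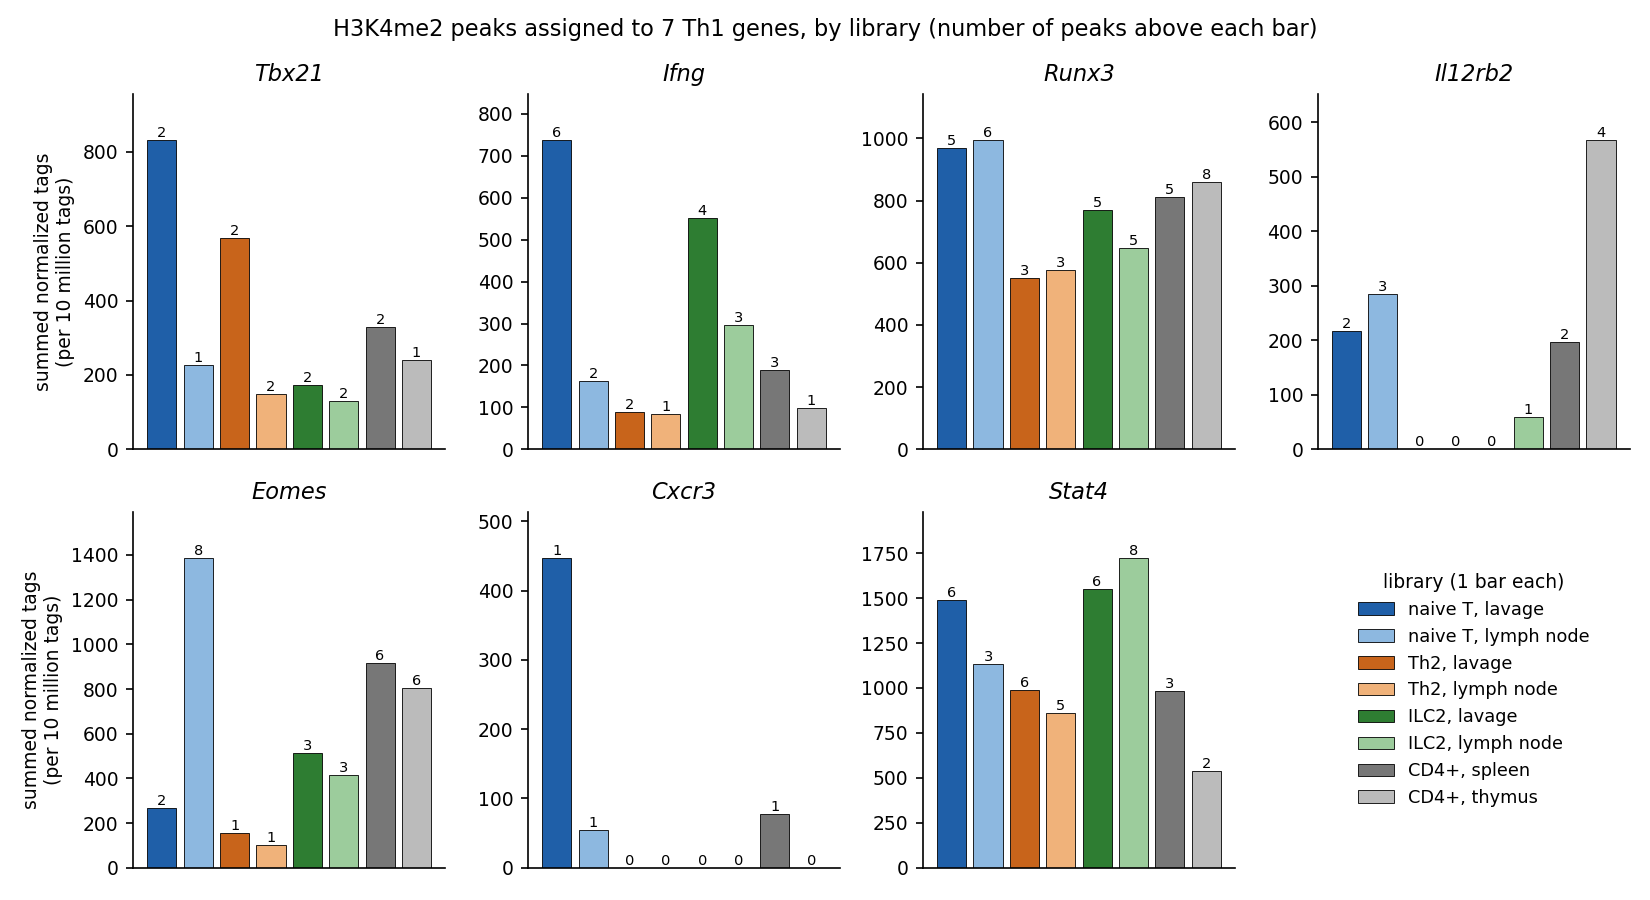
Summed normalized tags of the H3K4me2 peaks assigned to each of the 7 genes, 1 bar per library and with the number of peaks above each bar. Tbx21 reached 832.2 in lavage naive T cells and 568.5 in lavage Th2 cells, above the 6 other libraries, and Cxcr3 had peaks in 3 libraries only.

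The lavage naive T library stood apart from that of the lymph node beyond the Th1 genes, and cell type markers differed between them. Markers of naive T cells had peaks in both libraries and were lower in the lavage. Ccr7, the receptor that guides naive T cells into lymph nodes, held 517.5 in lavage against 3153.0 in lymph node naive T cells. The transcription factor genes Tcf7 and Lef1 held 1225.4 against 5357.8 and 2041.6 against 7462.7, and Il7r, a survival cytokine receptor gene, 931.6 against 1384.2. Of 5 genes of type 2 immunity, all had peaks in the lavage naive T library and 2 in that of the lymph node. Il4, Il13 and Il1rl1 held 253.7, 131.7 and 282.1 in the lavage and had no called peak in the lymph node, Il5 held 79.8 and 46.7, and Gata3 held 1683.1 and 2107.7, the higher value being that of the lymph node. The 5 genes summed to 2430.4 and 2154.4, against 5837.8 to 11458.5 in Th2 cells and ILC2s. Of 6 markers of natural killer cells, 2 carried a peak in lavage naive T cells and 4 in those of the lymph node, summing to 1403.5 and 1099.7, with Ncr1 and Klre1 uncalled in every library. Cd8a had no peak in any airway library, and Cd8b1 had 104.4 in lymph node naive T cells and none in the other 5. The part of these differences in the results for naive T cells was not tested. For the other groups, 6 of 7 T cell markers had peaks in every T cell library, all but Cd3g, and 5 of 7 in ILC2s, all but Cd4 and Themis. Their sum was 7239.8 to 15721.8 in the T cell libraries and 1216.2 and 1383.7 in ILC2s. Of 6 ILC2 markers, 5 had peaks in ILC2s and 3 in Th2 cells, and Kit was tall in ILC2s (1905.0 and 2041.7) and uncalled in Th2 cells. The libraries held between 11870820 and 24945548 tags, with 28.71% to 53.68% of tags in peaks, lowest in the Th2 libraries, which also had the fewest peaks.

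The interleukin-12 receptor gene Il12rb2 had its start region called in both naive T libraries and in no Th2 or ILC2 library. The start region of Il12rb2 (chromosome 6, 67374883 to 67377649) held 139.2 in lavage and 176.3 in lymph node naive T cells, 145.0 in spleen and 281.0 in thymus CD4+ cells. The region at +27.9 kb, inside the gene, followed the same calls, with 78.2 and 67.0 in naive T cells, 51.3 in spleen and 97.7 in thymus. ILC2s of the lymph node had a single peak of 58.7 at +87.7 kb, and the 2 Th2 libraries had none near the gene. An uncalled region can still hold signal below the threshold, and fewer cells with the mark and less of the mark per cell cannot be told apart in these bulk samples.

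Stat4, which encodes the transducer of interleukin-12 signals, was marked at its second annotated start in all 8 libraries, and its gene body differed between the cell types. Its start region (chromosome 1, 52007480 to 52015406) held 711.3 and 786.5 in naive T cells, 480.0 and 517.2 in Th2 cells and 860.7 and 900.1 in ILC2s, the lavage library given first here and below. These values are before centring on all regions, and the Th2 libraries had the lowest share of tags in peaks. After centring, the ILC2 difference from naive T cells was 0.42 on the log2 scale (SE 0.16, limma adjusted p = 0.241) and that of Th2 cells 0.03 (SE 0.16, limma adjusted p = 0.928). A merge distance of 2500 bp joined the start region with that at +33.0 kb, and the joined region gave 0.07 and -0.44. The first annotated start of Stat4 had no called peak in any library.

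Within the Stat4 gene, Th2 cells and ILC2s had other regions called than naive T cells. The region at +33.0 kb (52016903 to 52023419) held 273.3 and 297.0 in naive T cells and 257.3 in spleen CD4+ cells, but only 61.3 and 102.1 in ILC2s and no called peak in Th2 cells. Farther into the gene lay regions that Th2 cells and ILC2s had and lymph node naive T cells lacked. The regions at +66.3 kb (52052009 to 52054888) and +79.4 kb (52065499 to 52067543) were called in both Th2 and both ILC2 libraries and in no other library. At +66.3 kb the values were 96.0 and 39.6 in Th2 cells and 137.5 and 177.8 in ILC2s. At +79.4 kb they were 52.4 and 63.2 in Th2 cells and 118.3 and 116.9 in ILC2s.

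The region at +90.0 kb (52075304 to 52078896) was the tallest of these, with 292.6 and 279.5 in ILC2s and 140.3 and 131.4 in Th2 cells. Lavage naive T cells had 41.0 there, close to the threshold, and lymph node naive T, spleen and thymus cells had no called peak. At +48.3 kb, lavage naive T cells had 181.8, lavage Th2 cells 79.8 and ILC2s 80.6 and 39.4, while the lymph node naive T and Th2 libraries had no peak. At +53.1 kb, lavage naive T cells had 229.9, Th2 cells 142.8 and 111.2 and lymph node ILC2s 51.7. The lavage naive T library was thus the highest at both of these regions, at which its lymph node counterpart had no call. At +113.4 kb, near the end of the gene, both naive T libraries (50.6 and 49.6) and spleen (57.3) had a small peak that neither Th2 nor ILC2 cells had.

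**Figure D2:**
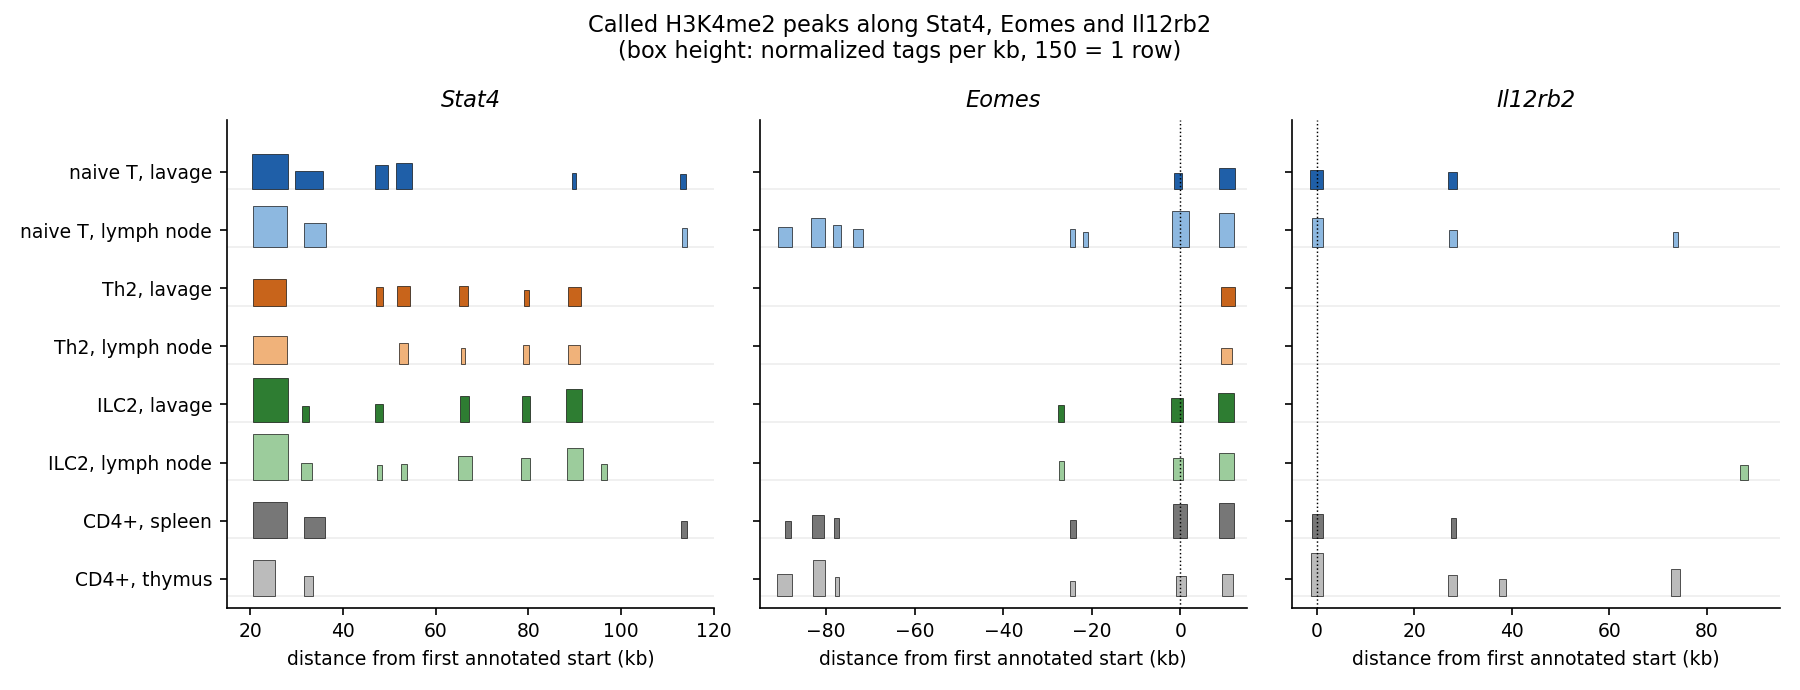
Called peaks of each library along Stat4, Eomes and Il12rb2, drawn by distance in kb from the first annotated start (dotted line where in range), with box height as normalized tags per kb. The Stat4 peaks between +66.3 and +90.0 kb appear in Th2 cells and ILC2s, with 1 small peak of lavage naive T cells at +90.0 kb (41.0), and the Eomes peaks between -89.2 and -77.6 kb in lymph node naive T, spleen and thymus cells.

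The start region of Tbx21, the T-bet gene, held more normalized tags in lavage than in lymph node in all 3 airway cell types. This region (chromosome 11, 97107933 to 97117003) held 662.9 in lavage and 227.1 in lymph node naive T cells. In Th2 cells it held 416.4 and 41.3, and in ILC2s 86.6 and 39.0. The lymph node values of Th2 cells and ILC2s were those of 1000 bp peaks near the minimum for a call. Spleen CD4+ cells had 328.2 and thymus 240.6. Lavage was therefore 2.92-fold higher in naive T cells (95% counting interval 2.65 to 3.22), 10.1-fold in Th2 cells (7.54 to 13.8) and 2.22-fold in ILC2s (1.73 to 2.88). These intervals cover counting error only, treat tags as independent and hold no spread between animals, since there is 1 library per site and cell type.

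At the Tbx21 start region the called width differed more between the sites than the density. In naive T cells the density was lower in the lavage. The called peak spanned 9070 bp in lavage and 2548 bp in lymph node naive T cells, with 73.1 and 89.1 normalized tags per kb. In Th2 cells it spanned 8030 and 1000 bp with 51.9 and 41.3 tags per kb, and the 1000 bp peak of the lymph node library ended short of the start. In ILC2s it spanned 2059 and 1000 bp with 42.1 and 39.0 tags per kb. Tags outside a called peak are not counted, so a narrow call leaves out any signal beside it. A second Tbx21 region at +11.1 kb (97102745 to 97105708) was not called in lymph node naive T, spleen or thymus cells. It held 169.3 in lavage naive T cells and 152.1 and 107.0 in Th2 cells. ILC2s had 87.4 in lavage and 92.0 in lymph node there, so the lavage was not the higher site.

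Between cell types, ILC2s lay below naive T cells at the Tbx21 start region in both libraries, by -2.56 on the log2 scale (SE 1.24), which did not pass the threshold (limma adjusted p = 0.349). The ILC2 value was -1.56 when lavage naive T cells were left out, -1.35 with a merge distance of 2500 bp and -0.77 (SE 0.15, limma adjusted p = 0.0721) as tags per kb. Th2 cells overlapped naive T cells (-0.95, SE 1.24, limma adjusted p = 0.657). The Th2 value turned to 0.05 without the lavage naive T library, to 0.75 without the lymph node Th2 library and to 0.03 with a merge distance of 2500 bp. At that distance the start region was joined with the region at +11.1 kb. The values at 2500 bp, for ILC2s and for Th2 cells, are those of the joined region.

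Ifng, the interferon-gamma gene, was marked over its body in lavage naive T cells, and in ILC2s at a separate downstream region. The region over the gene (chromosome 10, 118439886 to 118445033) held 319.7 in lavage naive T cells and 40.1 in spleen, and no peak was called in the other 6 libraries. Regions at +18.6 kb (91.1) and +29.4 kb (112.4) were called in the lavage naive T library alone. The tallest ILC2 region lay at +38.6 kb, 30831 bp outside the gene (118476725 to 118482586), with 374.8 in lavage and 226.9 in lymph node ILC2s. Lavage naive T cells (41.4) and lavage Th2 cells (49.2) had a peak near the threshold there. Lavage ILC2s were 1.65-fold above those of the lymph node (95% counting interval 1.48 to 1.84), and their Ifng start had no called peak.

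The upstream region of Ifng at -21.8 kb (118418084 to 118420427) was the one shared by all 8 libraries. It held 85.7 and 104.8 in naive T cells, 39.9 and 83.4 in Th2 cells, 74.6 and 69.6 in ILC2s, 110.0 in spleen and 98.8 in thymus. Neither comparison passed the threshold, with -0.21 (SE 0.34, limma adjusted p = 0.803) for ILC2s and -0.10 (SE 0.34, limma adjusted p = 0.867) for Th2 cells. The region at -34.0 kb was called in naive T cells (87.8 and 58.9), lavage ILC2s (38.9) and spleen (40.1), and in neither Th2 library.

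Cxcr3, the gene of a chemokine receptor that draws Th1 cells to inflamed tissue, had 1 region, over its start (chromosome X, 101730514 to 101738354). It held 446.4 in lavage naive T cells, 54.0 in those of the lymph node and 76.9 in spleen CD4+ cells, and was not called in Th2 cells, ILC2s or thymus. The lavage naive T library was 8.27-fold above the lymph node library (95% counting interval 6.89 to 9.97). As at Tbx21, width differed more than density, with 7840 against 1264 bp called and 56.9 against 42.7 normalized tags per kb.

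**Figure D3:**
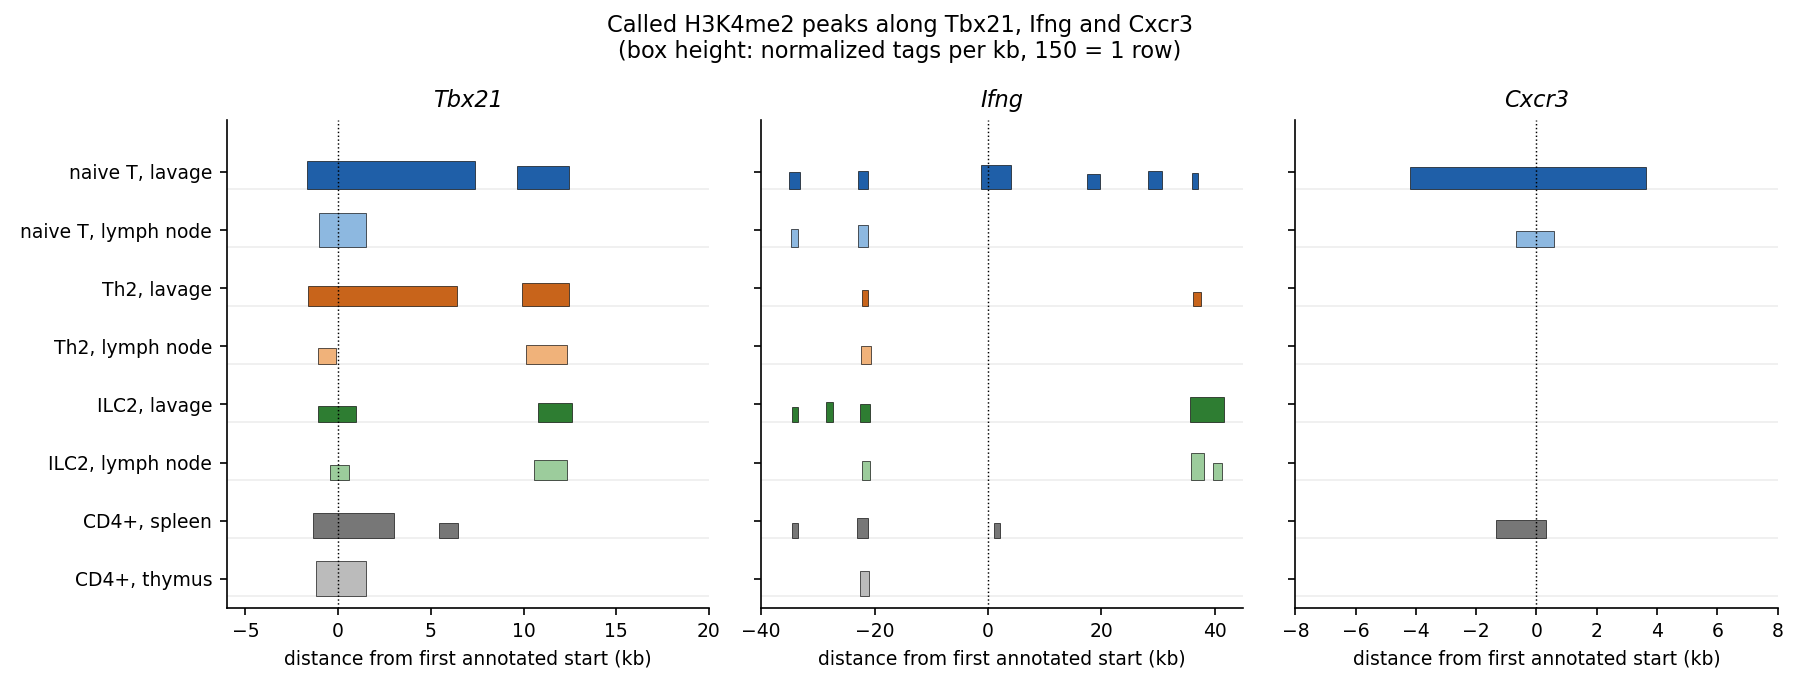
Called peaks of each library along Tbx21, Ifng and Cxcr3, drawn by distance in kb from the annotated start (dotted line), with box height as normalized tags per kb. The lavage naive T library has the widest peak at each start (9070 bp at Tbx21), and the 2 ILC2 libraries have the tall peaks about 38.6 kb downstream of the Ifng start.

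Runx3 had a region called at or next to each of its annotated starts in all 8 libraries. A called peak covered the first start in 8 libraries and the second in 5, as the peaks of both Th2 libraries and of lavage ILC2s began just past it. The region at its second annotated start (chromosome 4, 135151193 to 135160967) held 532.9 and 498.9 in naive T cells, 418.9 and 434.7 in Th2 cells, 470.2 and 427.9 in ILC2s, 431.2 in spleen and 353.5 in thymus. The region at the first, distal start (135119107 to 135121921) held 175.5 and 97.5 in naive T cells, 84.2 and 96.0 in Th2 cells and 119.5 and 131.0 in ILC2s. The ILC2 values lay within the range of the naive T libraries and the Th2 values just below it, and neither difference passed the threshold (0.12 for ILC2s and 0.07 for Th2 cells after centring, SE 0.41, limma adjusted p = 0.923 and 0.926). Without the lavage naive T library both passed, at 0.76 (SE 0.15, limma adjusted p = 0.033) and 0.72 (SE 0.15, limma adjusted p = 0.031), with the lone naive T library assumed to vary like the others. Upstream, the region at -17.3 kb (135102129 to 135104542) was called in naive T cells (113.7 and 130.8) and spleen (119.8) and in no Th2 or ILC2 library. The region at -40.3 kb (135079193 to 135081482) was called in naive T cells (95.7 and 121.9), ILC2s (87.8 and 39.4), spleen and thymus, and in neither Th2 library.

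Eomes had its highest summed value in the lymph node naive T library, where 8 peaks summed to 1384.5, against 266.6 from 2 peaks in the lavage. Its start region (chromosome 9, 118475960 to 118480209) held 79.8 in lavage and 376.6 in lymph node naive T cells, 175.2 and 130.1 in ILC2s, 269.0 in spleen and 118.2 in thymus, and was not called in Th2 cells. Lavage naive T cells were at 0.212 of the lymph node value (95% counting interval 0.180 to 0.248). The lymph node library also had 6 upstream regions between -89.2 and -21.4 kb that the lavage library lacked. Calls in the lymph node alone were common in naive T cells, at 27.3% of member regions and 28.7% of all regions called at either site. The tallest of the upstream Eomes regions, at -81.8 kb (118394788 to 118397924), held 238.1 in lymph node naive T cells, 154.8 in spleen and 266.9 in thymus.

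ILC2s had their own small Eomes region at -27.0 kb (118450440 to 118451953), with 66.5 and 60.4, which no other library had. The region at +10.3 kb (118486632 to 118490410), 500 bp past the gene, was the only Eomes region of Th2 cells, with 153.3 and 101.9. Naive T cells had 186.8 and 303.1 there and ILC2s 271.4 and 225.1, and neither difference passed the threshold (limma adjusted p = 0.487 and 0.697).

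**Figure D4:**
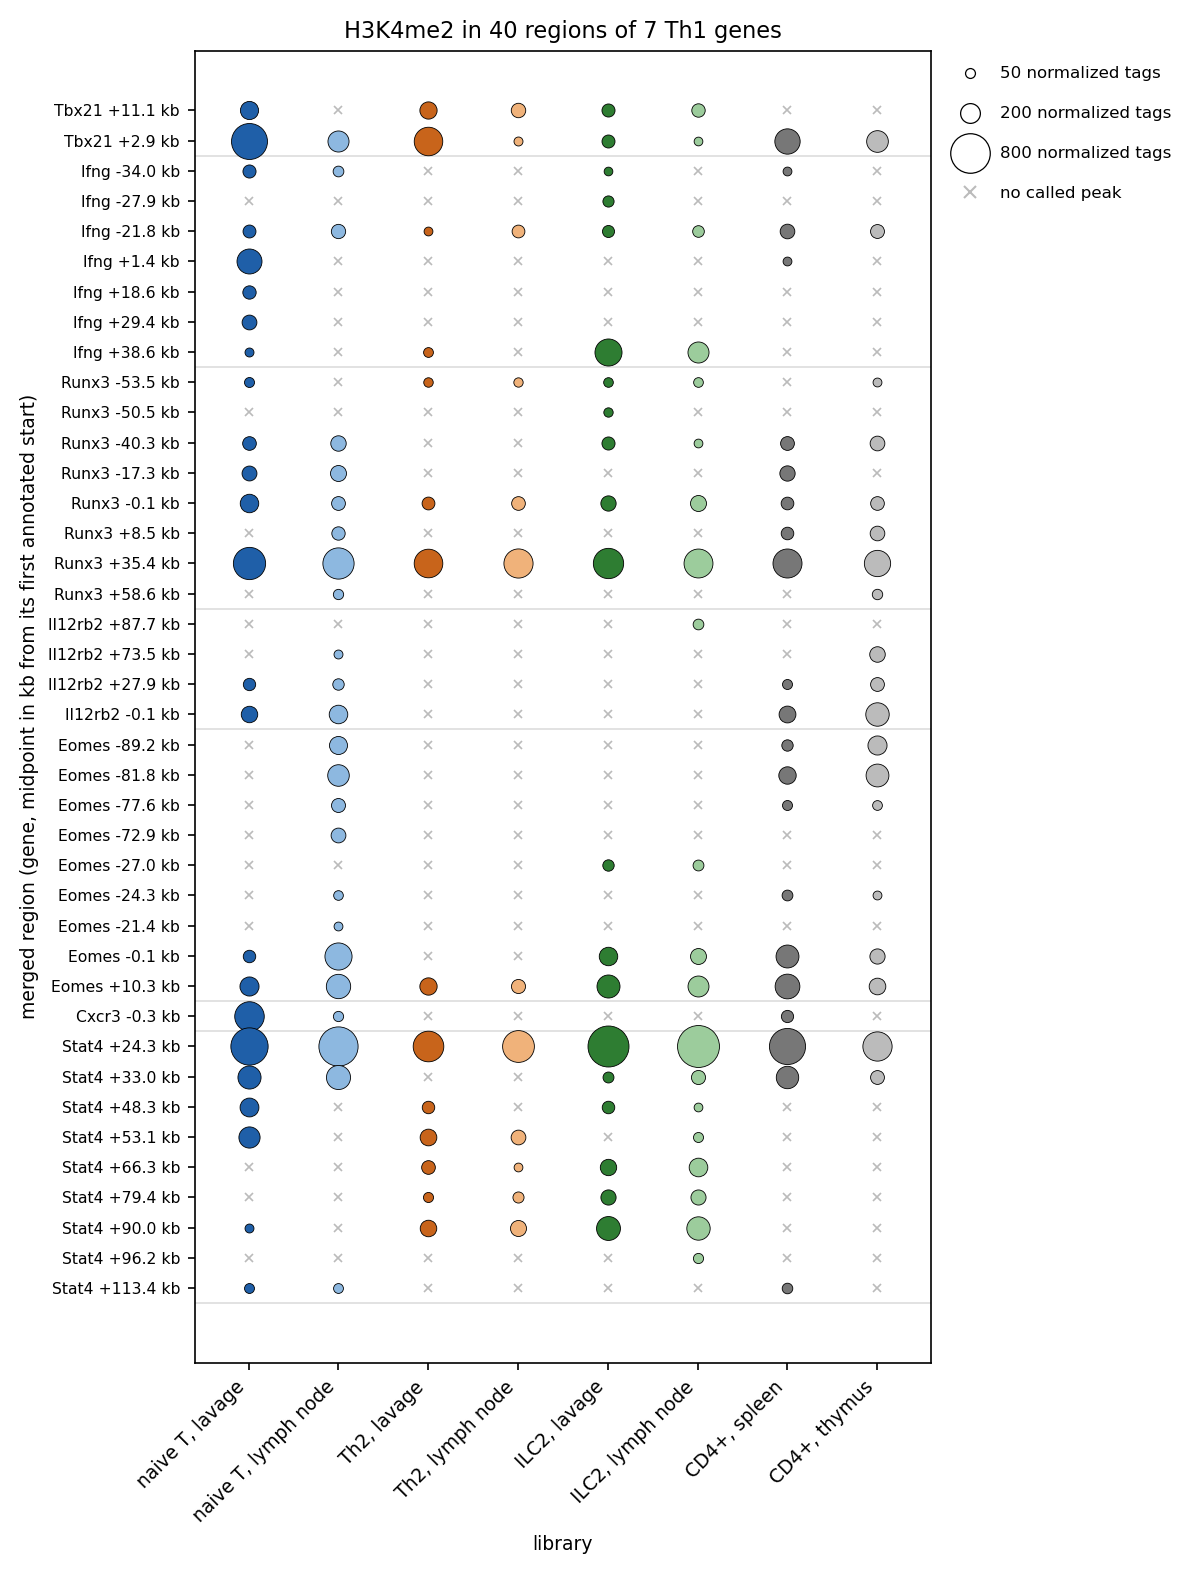
Normalized tags of the 40 merged regions (rows, named by gene and midpoint in kb from its first annotated start) in 8 libraries (columns), with circle area in proportion to tags and a cross where no peak was called. The Il12rb2 start and Cxcr3 rows are empty in Th2 cells and ILC2s, and 6 upstream Eomes rows are filled in lymph node but not lavage naive T cells. Of all regions called in naive T cells at either site, 28.7% were called in the lymph node alone.

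Counted over the 40 regions, 9 were called in both naive T and neither Th2 library, and 2 in both Th2 and neither naive T library. The first is 22.5% of the regions, against 5.72% of all regions in the series, and the second 5.0%, against 1.10%. The 9 were 2 each near Runx3, Il12rb2 and Stat4 and 1 each near Ifng, Eomes and Cxcr3, and both Th2 regions were those of Stat4 at +66.3 and +79.4 kb. With the same number of peaks taken per library the counts were 5 and 4. Without the lavage naive T library they were 18 and 6, where fewer libraries have to match. The shares of all regions given here belong to the main setting and not to these alternatives.

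Against ILC2s, naive T cells had 5 regions of their own (12.5%, against 2.93% of all regions) and ILC2s 3 (7.5%, against 11.6%). The 5 comprised both Il12rb2 regions, the Runx3 region at -17.3 kb, Cxcr3 and the Stat4 region at +113.4 kb. The 3 were the Stat4 regions at +66.3 and +79.4 kb and the Eomes region at -27.0 kb. With a stricter minimum of 60 tags the counts were 3 and 5, and without the lavage naive T library 14 and 8. No share of all regions is given for these alternatives. Both comparisons use the same naive T libraries and are not independent. Each pair of libraries is too small for a p-value of its own, as 2 against 2 allows no exact two-sided permutation p below 0.333.

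In height, 6 of the 40 regions were called in all 6 airway libraries and could be tested, and 0 passed in either direction. Over all 11669 tested regions, 2.59% were higher and 1.60% lower in ILC2s than in naive T cells, and 0.103% higher and 0.0257% lower in Th2 cells (limma, adjusted p under 0.05). At an unadjusted p under 0.05, limma gave 1 of the 6 for ILC2s (Stat4) and 0 for Th2 cells, against 19.1% and 19.0% of all regions. The median difference of the 6 was 0.05 on the log2 scale for ILC2s and -0.04 for Th2 cells, and over all regions -0.02 and 0.00. A region that a cell type lacks cannot enter this test, so these 6 say nothing of the other 34. Without the lymph node naive T library, which had no call there, the Stat4 region at +90.0 kb entered the fit, as 1 of 9 member regions. Its difference from naive T cells was 2.75 in ILC2s and 2.11 in Th2 cells. Both values rest on the lone lavage naive T library, at 41.0 and close to the threshold, again assumed to vary like the others.

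Between the sites, naive T cells had 5 member regions past 2-fold, Th2 cells 3 and ILC2s 3. Of 15 regions called in both naive T libraries, 4 were past 2-fold higher in the lavage after centring on the median of all regions (26.7%, against 7.25% of all regions) and 1 was past 2-fold lower (6.67%, against 6.46%). The 4 were Cxcr3 (3.55 on the log2 scale), the Tbx21 start region (2.04), the distal start of Runx3 (1.35) and the Ifng region at -34.0 kb (1.07), and the lower one was the Eomes start (-1.74). Centring added to these values, as the median of all regions lay at -0.50 before it, and without centring 2 of the 4 remained past 2-fold. Of the 33 regions called at either site, 9 were called in the lavage alone (27.3%, against 6.75%) and 9 in the lymph node alone (27.3%, against 28.7%). The lavage regions comprised 4 of Ifng, 3 of Stat4 and 1 each of Tbx21 and Runx3, and the lymph node regions 6 of Eomes, 2 of Runx3 and 1 of Il12rb2.

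In Th2 cells, 2 of 12 regions were past 2-fold higher in the lavage (16.7%, against 2.31%), the Tbx21 start region (3.38) and Stat4 at +66.3 kb (1.32). The Ifng region at -21.8 kb was past 2-fold lower (-1.02), 1 of 12 (8.33%, against 1.61%). Of 14 regions, 2 were called in the lavage alone (14.3%, against 7.26%) and 0 in the lymph node alone (against 6.66%). In ILC2s, 3 of 17 regions were past 2-fold higher in the lavage (17.6%, against 1.21%), namely Runx3 at -40.3 kb (1.20), the Tbx21 start region (1.19) and Stat4 at +48.3 kb (1.08), and 0 were lower (against 0.762%). At each Th2 and ILC2 region past 2-fold, the lower library had a 1000 bp peak of 39.0 to 41.3 tags, near the minimum. With a minimum of 60 tags, all these Th2 and ILC2 counts were 0. Each site held 3 of 23 ILC2 regions alone (13.0%, against 5.72% for the lavage and 6.20% for the lymph node). As normalized tags per kb of called peak, centred in the same way, 0 member regions were past 2-fold in any cell type and direction. Before centring, the Eomes start was past 2-fold lower, with 42.8 per kb in lavage and 94.9 in lymph node naive T cells. The minimum of about 40 tags, with an initial peak size of 1000 bp, limits how low this density can fall.

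**Figure D5:**
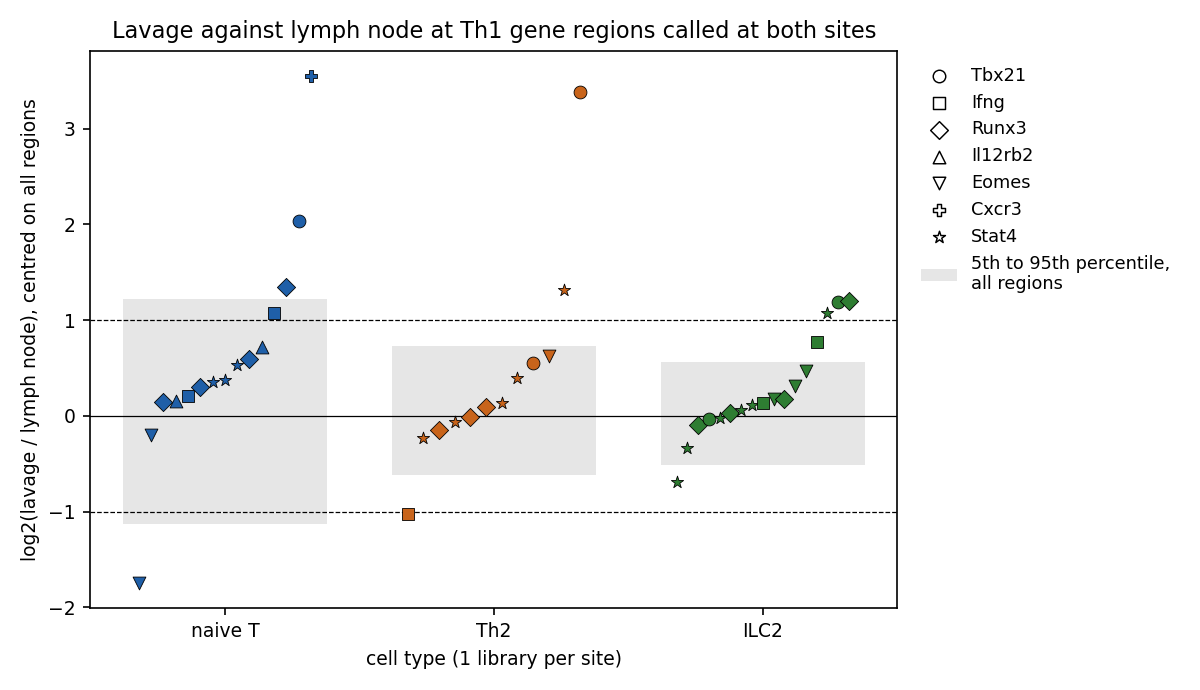
Lavage minus lymph node difference (log2, centred on the median of all regions) of the member regions called at both sites, for naive T cells, Th2 cells and ILC2s. The Tbx21 start region lies above 1 in all 3 cell types, at 2.04, 3.38 and 1.19, and the Eomes start is at -1.74 in naive T cells.

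Other genes of type 1 immunity came from a list of 42, of which 36 had 142 regions. The shares of these called in only 1 of the compared cell types lay near those of all regions. Of these regions, 5 were called in naive T cells and not in ILC2s (3.52%, against 2.93% of all regions), and 18 in ILC2s and not in naive T cells (12.7%, against 11.6%). Against Th2 cells, 6 were called in naive T cells alone (4.23%, against 5.72%) and 2 in Th2 cells alone (1.41%, against 1.10%). Among the list regions called in both ILC2 and neither naive T library, the tallest lay in Il18r1 (330.7 and 325.0) and Il18rap (281.8 and 302.7), the receptor chains for interleukin-18, and near Id2 (252.6 and 293.5), a regulator needed for innate lymphoid cells. A region near Bhlhe40 held 198.8 and 230.4 in ILC2s. Fasl, the gene of a death ligand, had a region over the gene in naive T cells (243.7 and 273.8) and Th2 cells (259.3 and 276.3) but not in ILC2s. Distant Fasl regions of 197.6 and 201.5 and of 134.3 and 141.0 were called in ILC2s and not in naive T cells. Of the 12 Fasl regions, 8 were called in both ILC2 libraries.

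Of 45 regions of the list that could be tested, 2 were higher and 1 lower in ILC2s than in naive T cells, and 1 was higher in Th2 cells. A Zeb2 region rose by 3.12 in ILC2s (SE 0.50, limma adjusted p = 0.0347). A Runx1 region rose in ILC2s (1.51, SE 0.16, limma adjusted p = 0.0111) and in Th2 cells (1.96, SE 0.16, limma adjusted p = 0.0396). The region over Zbtb7b, which encodes the factor that commits T cells to the CD4 lineage, fell in ILC2s (-1.28, SE 0.23, limma adjusted p = 0.0468). The median of the 45 was 0.29 in both comparisons. Between the sites, 19 of 58 list regions were past 2-fold higher in lavage naive T cells (32.8%, against 7.25% of all regions), 6 of 72 in Th2 cells (8.33%, against 2.31%) and 2 of 94 in ILC2s (2.13%, against 1.21%). In each cell type 1 list region was past 2-fold lower in the lavage (1.72%, 1.39% and 1.06%, against 6.46%, 1.61% and 0.762%).

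The genes most like each member in summed tags over the 8 libraries were found by Pearson correlation of log2 sums, given as a description over libraries that differ in depth and enrichment. For Tbx21 they were Endod1 (0.931), Tbc1d32 (0.916) and N4bp1 (0.907), and for Ifng Sec24a (0.933), Slc22a15 (0.903) and Ttc23 (0.901). For Cxcr3 they were Fam149b (0.98), Mmd (0.939) and Scimp (0.935), and for Stat4 Dnajc5b (0.983), Dock10 (0.973) and Zcwpw2 (0.966). Il12rb2 came closest to Spink13 (0.988), and Eomes to Lpin3, Apol7e and Mia2 (0.993 each). Runx3 varied too little to enter.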

How the data were processed

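H3K4me2 ChIP-seq peak lists of 8 libraries were used. Bowtie, HOMER and mm10 are named in the submitters' processing notes, without versions. Per the file headers, HOMER findPeaks was run on each library alone, with an initial peak size of 1000 bp, a false discovery rate of 0.001, at least 39.9 to 40.4 tags per 10000000 and a 4-fold excess over IgG. The thymus IgG library served for every list except spleen, per the file headers. The deposited signal is the normalized tag count per 10000000 tags. The 2 IgG samples, whose labels name the H3K4me2 antibody, were not analysed here, so the meaning of the excess over IgG is uncertain.

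Airway peaks were merged within 500 bp, the value being the summed tags of a library's peaks in a region. Genes were RefSeq GRCm38.p6 protein-coding intervals (no exons or introns), and distances run from the first annotated start. Regions called in all 6 airway libraries were compared with limma 3.58.1 (R 4.3.3) on log2 values centred on library medians, with Benjamini-Hochberg adjustment at 0.05, checked on simulated data. Site comparisons had 1 library each, a 2-fold limit and exact (Clopper-Pearson) 95% intervals. Described in full were each member's tallest gene region, regions called in 1 cell type only and those past 2-fold. From the type 1 list, at most 8 genes were named by size. Likeness used log2(sum + 40) for genes reaching 200 tags. Alternatives were merge distance, tag minimum, equal peak numbers, gene window, tallest peak, tags per kb, no centring, site block, fewer libraries and leaving out each library. Members and lists were chosen with earlier results of these data known. One item of the marker list is not reported here.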

Additional observations from a re-analysis of the deposited data

Results flagged for a closer look

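Lavage minus lymph node differences, centred and on the log2 scale, had opposite signs in 2 cell types, with at least 1 of the values past 2-fold, at 4 member regions. Each rests on 1 library per site, and the difference between cell types was not tested. The Ifng region at -21.8 kb was at 0.21 in naive T cells, -1.02 in Th2 cells and 0.14 in ILC2s. The distal Runx3 start was at 1.35 in naive T cells, -0.15 in Th2 cells and -0.09 in ILC2s. The Eomes start was at -1.74 in naive T cells and 0.47 in ILC2s. The Stat4 region at +66.3 kb was at 1.32 in Th2 cells and -0.33 in ILC2s.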

How the results depend on the processing

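With peaks of at least 60 tags, regions called only in naive T cells against ILC2s numbered 3 and only in ILC2s 5, and those only in Th2 cells 1. The lavage 2-fold counts were then 2 higher in naive T cells, 0 higher and 0 lower in Th2 cells and 0 higher in ILC2s. With equal peak numbers, 5 regions were only in naive T cells against Th2 cells and 4 only in Th2 cells, and the 2-fold counts were 1 higher in naive T cells and 1 higher in ILC2s. Without centring, 2 were higher in naive T cells, and merging within 2500 bp left 1 higher in ILC2s. As tags per kb after centring, all these site counts were 0, in naive T cells and in Th2 cells for both directions and in ILC2s for higher. No share of all regions is given beside the counts in this section.

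Leaving out 1 library at a time gave 5 to 14 regions only in naive T cells and 3 to 8 only in ILC2s, and 9 to 18 only in naive T cells and 2 to 6 only in Th2 cells. The limma counts ran from 0 to 1 higher and 0 to 0 lower in both comparisons. For ILC2s the log2 differences ran from -3.57 to -1.56 (Tbx21), -0.30 to -0.13 (Ifng -21.8 kb), -0.54 to 0.76 (Runx3 -0.1 kb), -0.30 to 0.25 (Runx3 +35.4 kb), 0.07 to 0.40 (Eomes +10.3 kb) and 0.25 to 0.57 (Stat4 +24.3 kb). For Th2 cells they ran from -2.63 to 0.75 (Tbx21), -0.60 to 0.42 (Ifng -21.8 kb), -0.58 to 0.72 (Runx3 -0.1 kb), 0.07 to 0.62 (Runx3 +35.4 kb), -0.62 to 0.02 (Eomes +10.3 kb) and -0.13 to 0.18 (Stat4 +24.3 kb).

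Some signs turned, with none of these values past the threshold. For ILC2s these were Ifng -21.8 kb (0.08) and Runx3 +35.4 kb (0.00) as tags per kb and Runx3 -0.1 kb (-0.06) without centring. For Th2 cells they were Tbx21 (0.03) and Stat4 +24.3 kb (-0.44) with merging within 2500 bp, Stat4 +24.3 kb (-0.01) with 60 tags, and Ifng -21.8 kb (0.21) and Stat4 +24.3 kb (-0.01) as tags per kb. Without centring they were Runx3 -0.1 kb (-0.54), Runx3 +35.4 kb (-0.27) and Stat4 +24.3 kb (-0.59). Merging within 2500 bp joined the Tbx21 and Stat4 start regions each with a neighbour, at +11.1 and +33.0 kb, so those values are of the joined regions. Causes were not tested.

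Same-site libraries deviated together weakly over all regions, with correlations across 11669 regions of 0.108, -0.015 and 0.259. The main fit held no site term, so its spread includes the site, and single regions can differ from the correlation over all. With the site as a replicate block, 0 member regions passed in either comparison. The Tbx21 start region in ILC2s then had a limma adjusted p of 0.084 (-2.56, SE 0.52), against 0.349 (SE 1.24) in the main fit.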
